A study of Mus musculus with 6 samples.

Results

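The gene Trp53, which encodes the transcription factor p53, and 9 of its direct target genes (Mdm2, Ccng1, Cdkn1a, Bbc3, Pmaip1, Perp, Phlda3, Sesn1 and Trp53inp1) were followed in mouse leukemia cells. These 10 members were chosen by gene name from the 56748 genes of the deposited count table, and all 10 were found. The cells came from bone marrow with leukemia of the oncogene MLL-AF9, in which part of the chromatin enzyme MLL is joined to AF9 and which causes acute myeloid leukemia. Bulk RNA sequencing covered 3 libraries with the genotype label Rbm5 KO (numbers 31, 32 and 40) and 3 with the label Rbm5 WT (numbers 25, 27 and 29), all on the MLL-AF9 background. RBM5 is an RNA-binding protein of pre-mRNA splicing, and the series asked about its place in the MLL self-renewal gene program. The labels name neither the way Rbm5 was removed, nor a treatment, nor the age of the animals, and they describe the source as whole bone marrow in one place and as cultured cells in another.

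The p53 protein is held at a low level by MDM2, a ubiquitin ligase that marks it for destruction. DNA damage and other stresses free p53, which then binds its response elements and raises genes that stop the cell cycle, start apoptosis or limit growth, and also Mdm2 itself, which closes a negative feedback loop. Control of p53 is thus largely at the level of the protein, so that the mRNA levels of its targets are commonly read as its output. In acute myeloid leukemia, and in MLL-rearranged leukemia among it, p53 is often not mutated but kept in check.

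The values that follow are read as target levels. The sequences below therefore show exact matches to the consensus decamer of the p53 response element in the members' promoter windows. RefSeq promoter windows (build GRCm38.p6, 250 bases before to 50 after an annotated start) were at hand for 7 members with 11 windows, and Perp, Pmaip1 and Trp53inp1 were not in that table. The p53 consensus decamer, which reads the same on both strands, was present in 5 of the 11 windows, at 1 start each of Cdkn1a, Mdm2, Ccng1, Sesn1 and Trp53. Over all 32851 windows of the table it was present in 8.36%. A pair of exact decamers at most 13 bases apart was present in 1 member window, that of the upstream Cdkn1a start, and in 0.0731% of all windows. That window (chr17:29090729-29091028, plus strand) is given whole, with exact decamers in capitals, and the pair begins 73 bases before the annotated start. The stretch tgacatgttc right after the pair departs from the consensus at its opening base, so it is in lower case and was not counted. Which of these stretches p53 uses as partners was not tested. The other 4 are given with 20 bases on either side where they begin 186 (Mdm2), 185 (Ccng1), 173 (Sesn1) and 75 (Trp53) bases before the start.
Cdkn1a, upstream start: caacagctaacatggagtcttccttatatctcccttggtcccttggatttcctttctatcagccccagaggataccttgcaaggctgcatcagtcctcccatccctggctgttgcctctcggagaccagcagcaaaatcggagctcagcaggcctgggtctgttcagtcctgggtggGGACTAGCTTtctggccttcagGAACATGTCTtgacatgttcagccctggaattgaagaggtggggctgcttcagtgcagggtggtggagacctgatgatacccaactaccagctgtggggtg
Mdm2, chr10:117710915-117710964, minus strand: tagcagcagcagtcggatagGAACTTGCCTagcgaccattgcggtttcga
Ccng1, chr11:40755442-40755491, minus strand: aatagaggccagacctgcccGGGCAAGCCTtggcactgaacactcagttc
Sesn1, chr10:41887246-41887295, plus strand: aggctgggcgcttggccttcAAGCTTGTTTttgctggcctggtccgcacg
Trp53, chr11:69580264-69580313, plus strand: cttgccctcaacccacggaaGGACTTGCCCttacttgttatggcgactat
The windows of Bbc3 and Phlda3, the downstream Cdkn1a start and the other Sesn1 start held no exact match to the decamer. Elements with a mismatch, or cut by a window's edge, were not counted, so these windows are not shown to lack a p53 site. A match is a description of the letters and does not show that p53 bound there in these cells.

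Before the members, several facts of the libraries bear on every value below. Total counts were 26359299 to 27638075 in KO libraries and 27140474 to 31807588 in WT libraries. Rbm5 itself, the gene named as removed, was at 269.0, 266.7 and 245.3 CPM in KO libraries 31, 32 and 40 and at 227.5, 214.1 and 173.6 CPM in WT libraries 25, 27 and 29 (CPM, the gene's share of a library's TMM-scaled counts, times 1e6). Its log2 fold change, KO minus WT, was 0.34 (edgeR adjusted p = 0.107), so KO and WT are used as the names on the labels, on which each direction depends. Ddx3y, on the Y chromosome, was at 98.4 to 135.3 CPM in KO libraries and at 0 counts in each WT library. Xist, an RNA gene on the X chromosome, was at 1269 to 1625 CPM in WT libraries. Among KO libraries Xist was highest in library 32, at 192.2 CPM, beside the Ddx3y counts there. Sex and genotype label therefore cannot be told apart. Whether KO library 32 holds a mixture of male and female cells was not tested. Of 15963 genes tested with edgeR's quasi-likelihood test, 870 rose and 498 fell at an adjusted p of 0.05 (63.6% of calls higher in KO); scaled by total counts alone, under which the median over all genes shifted by -0.12 on the log2 scale, 597 rose and 682 fell (46.7% higher). Progenitor genes of MLL leukemia (Kit, Cd34, Hoxa9, Meis1 and Myb) were present in each library, with summed levels of 976.4 to 1156 CPM in KO and 1179 to 1671 CPM in WT; all 5 had a log2 fold change below 0, and 1, Hoxa9, fell (-1.20, edgeR adjusted p = 0.0375). The 10 neutrophil markers summed to 8525 to 15415 CPM in KO and 605.2 to 2249 CPM in WT, and 6 of the 10 rose; the 9 monocyte and macrophage markers summed to 2586 to 4552 CPM in KO and 869.2 to 1452 CPM in WT, and 3 of the 9 rose. Markers of erythroid cells summed to at most 4.95 CPM in KO and 2.56 CPM in WT, with 1 of the 4 tested, the globin gene Hbb-bs, called higher, and those of T cells to at most 4.21 CPM in KO and 0.793 CPM in WT. Hbb-bs and Ms4a7, 1 of the 3 called monocyte and macrophage markers, reached at most 0.176 and 0.222 CPM in WT libraries. Both lay below the low-count filter's level of 0.365 CPM there. They entered the test through the KO libraries, where they are high, so their calls support no statement on these markers. B cell markers summed to 77.4 to 187.6 CPM in KO and 88.6 to 151.1 CPM in WT, most of it Ighm. Stromal markers summed to 8.22 to 17.4 CPM in KO and 3.24 to 7.40 CPM in WT. In bulk libraries fewer cells of a type and less RNA per cell cannot be told apart, and the part of these marker levels in any value below was not tested.

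Of the 10 members, 1 fell (Perp), 0 rose and 9 did not pass the test, where 8.57% of all tested genes were called, 5.45% as higher and 3.12% as lower in KO. Perp passed the filter on low counts in 0 KO and 3 WT libraries, so that it entered the test through the group where it is high and its call supports no statement on the members. By edgeR 3 members (Mdm2, Perp and Phlda3) had an unadjusted p under 0.05, as did 26.9% of all tested genes. DESeq2 called Perp and Mdm2, where it called 16.7% of all genes with an adjusted p, and gave 3 members an unadjusted p under 0.05, as it did 27.8% of all genes. With limma-voom 0 members were called and 3 had an unadjusted p under 0.05, against 8.24% and 27.4% of all tested genes. The members' median log2 fold change was 0.08, with 5 values above and 5 below 0, against a median of -0.01 over all tested genes. The groups did not overlap for 2 members, Mdm2 and Perp, where they did not overlap for 33.7% of all tested genes. Several members differed more between libraries of 1 label than between the labels, as described for each below.

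**Figure D1:**
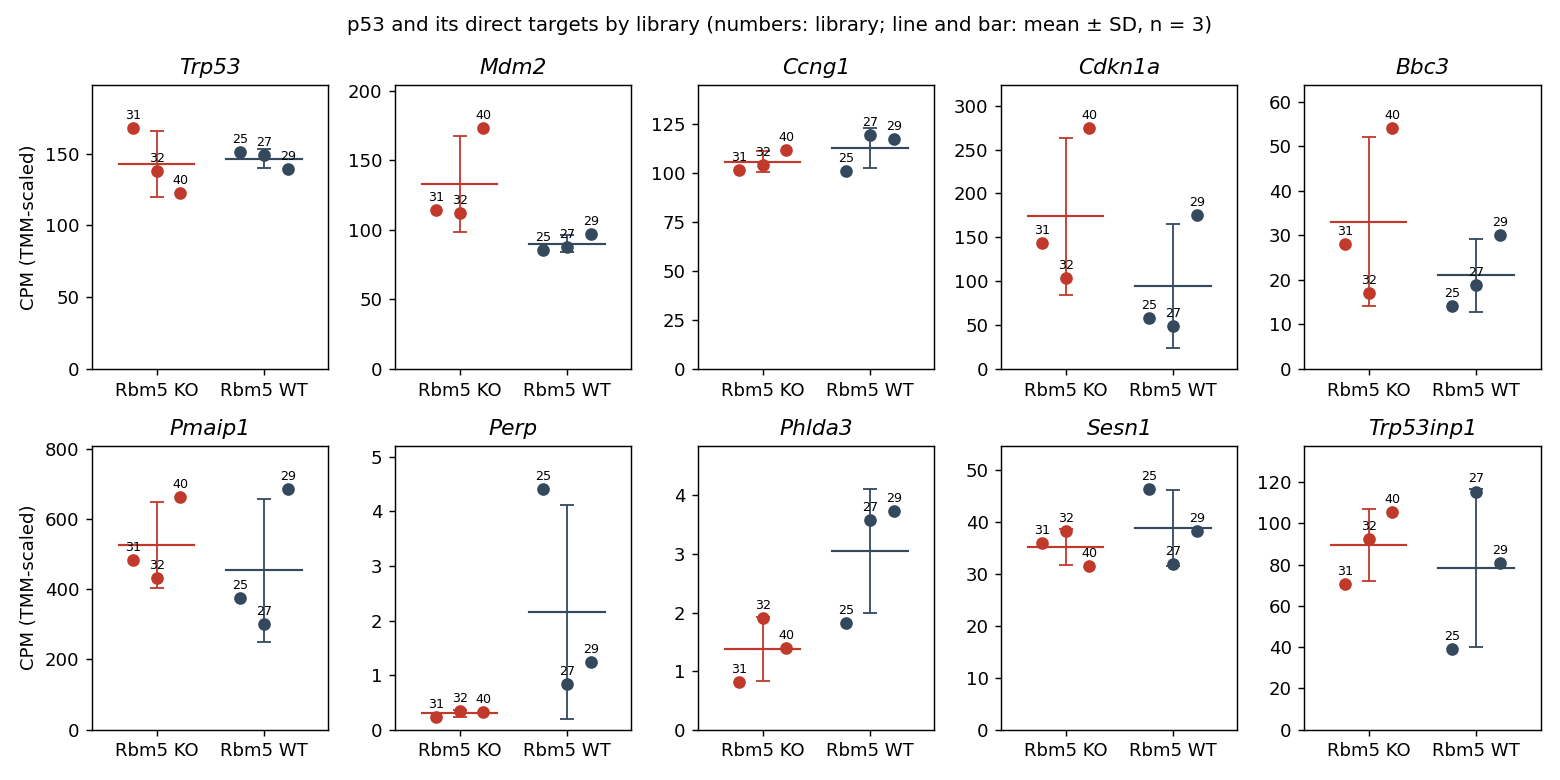
Level of each member in TMM-scaled CPM in the 3 Rbm5 KO libraries (left, red) and the 3 Rbm5 WT libraries (right, dark), with library numbers, the mean as a line and the SD as a bar. KO library 40 and WT library 29 are the highest of their groups for Mdm2, Cdkn1a, Bbc3 and Pmaip1, and Perp lies below 0.5 CPM in each KO library.

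Trp53 mRNA did not differ between labels beyond the spread of the libraries. The gene (ENSMUSG00000059552, chromosome 11, 69471185 to 69482699, plus strand; gene coordinates here and below are the deposited table's own, without a stated build) was at 167.8, 138.3 and 122.5 CPM in KO libraries 31, 32 and 40. In WT libraries 25, 27 and 29 it was at 151.5, 149.1 and 139.5 CPM. The WT libraries lay inside the range of the KO libraries, and KO library 40 was the lowest of all 6. The means were 142.9 ± 23.0 CPM in KO and 146.7 ± 6.32 CPM in WT (SD, n = 3 each). The log2 fold change was -0.04 (95% interval -0.32 to 0.24, edgeR adjusted p = 0.878), and it turned to 0.06 without KO library 40. A long noncoding RNA on the other strand overlaps Trp53 in the table, with 142 counts over the KO group and 207 over the WT group, and the processed copy Trp53-ps had 60 over KO and 44 over WT. The sources used here do not say whether counting used strand, which makes reads from overlapping stretches uncertain; these counts compare with the 2999 to 4512 counts of Trp53 in KO libraries and 4295 to 5150 in WT libraries. The p53 relatives Trp63 and Trp73 had 0 counts in each library.

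The genes with the most similar pattern to Trp53 over the 6 libraries, among 8953 other protein-coding genes with a mean of at least 10 CPM, were Fbxo45 (Pearson's r = 0.995 on log2 CPM), Fut7 (0.979) and Cdca7 (0.977). They are named as a description of 6 points that share their libraries, and the likeness was the highest of many. Fbxo45, an F-box protein of ubiquitin ligase complexes, was at 50.5, 37.7 and 31.3 CPM in KO libraries 31, 32 and 40 and at 43.0, 42.4 and 36.8 CPM in WT libraries 25, 27 and 29. As with Trp53, KO library 31 was the highest and KO library 40 the lowest.

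Neither of the feedback genes, Mdm2 and Ccng1, passed the test. Mdm2 (ENSMUSG00000020184, chromosome 10, 117524780 to 117546663, minus strand) was at 114.0, 112.3 and 172.9 CPM in KO libraries 31, 32 and 40. In WT libraries 25, 27 and 29 it was at 85.8, 87.5 and 96.8 CPM. Each KO library was above each WT library, and KO library 40 stood far above the rest. The means were 133.1 ± 34.5 CPM in KO and 90.1 ± 5.93 CPM in WT (SD, n = 3 each). The log2 fold change was 0.56 ± 0.17 SE (95% interval 0.17 to 0.96), which did not pass over all genes (edgeR adjusted p = 0.0819). It passed with DESeq2 (adjusted p = 0.0292) and without the filter on low counts (0.0409), and was 0.33 without KO library 40 (0.139); over the alternatives its adjusted p ran from 0.0292 to 0.316.

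Ccng1, which encodes cyclin G1, a p53 target that acts on MDM2 through a phosphatase, was at 101.3, 104.1 and 111.7 CPM in KO libraries 31, 32 and 40. In WT libraries 25, 27 and 29 it was at 101.0, 119.4 and 117.4 CPM. The groups overlapped, with WT library 25 the lowest of all. The log2 fold change was -0.09 (95% interval -0.32 to 0.13, edgeR adjusted p = 0.596), and Ccng1 was the steadiest member, its within-group SD of 0.11 on the log2 scale lying below the median of 0.16 over 9309 genes with a mean of at least 10 CPM.

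Cdkn1a, which encodes p21, the inhibitor of cyclin-dependent kinases through which p53 stops the cell cycle, varied more between libraries of 1 label than between labels. The gene (ENSMUSG00000023067, chromosome 17, 29309950 to 29319701, plus strand), whose upstream window carries the paired decamers shown above, was at 143.6, 104.0 and 274.4 CPM in KO libraries 31, 32 and 40. In WT libraries 25, 27 and 29 it was at 58.2, 49.4 and 175.6 CPM. WT library 29 lay above KO libraries 31 and 32, so the groups overlapped, while the other 2 WT libraries lay below all KO libraries. The means were 174.0 ± 89.1 CPM in KO and 94.4 ± 70.5 CPM in WT (SD, n = 3 each). The log2 fold change was 0.88 (95% interval -0.63 to 2.39, edgeR adjusted p = 0.413). It ranged from 0.39 without KO library 40 to 1.69 without WT library 29. A gene of unverified status on the other strand, 1700023B13Rik, overlaps Cdkn1a in the table, with 1665 counts over KO and 1275 over WT.

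The BH3-only genes Bbc3 and Pmaip1, which encode the apoptosis activators PUMA and NOXA, had the same libraries on top. Bbc3 (chromosome 7, 16042318 to 16052130, plus strand) was at 28.1, 17.0 and 54.0 CPM in KO libraries 31, 32 and 40 and at 14.2, 18.8 and 30.2 CPM in WT libraries 25, 27 and 29. Pmaip1 (chromosome 18, 66591604 to 66598636, plus strand) was at 482.2, 432.3 and 664.1 CPM in KO libraries 31, 32 and 40 and at 375.0, 302.4 and 685.9 CPM in WT libraries 25, 27 and 29. KO library 40 and WT library 29 were the highest of their groups for both genes, and the groups overlapped. The log2 fold changes were 0.65 for Bbc3 (95% interval -0.48 to 1.79, edgeR adjusted p = 0.426) and 0.21 for Pmaip1 (-0.58 to 1.00, 0.729). Without KO library 40 that of Bbc3 was 0.10, and without WT library 27 that of Pmaip1 turned to -0.03.

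Perp, the member called lower, was at a low level, with 1 WT library far above the others. It was past the filter on low counts in WT libraries alone. Its call, and its passes in the alternatives below, therefore support no statement on the members. Perp (ENSMUSG00000019851, chromosome 10, 18720768 to 18732821, plus strand) encodes a tetraspan membrane protein of apoptosis and of desmosomes. It was at 0.223, 0.344 and 0.327 CPM in KO libraries 31, 32 and 40, from 6, 9 and 8 counts. In WT libraries 25, 27 and 29 it was at 4.41, 0.833 and 1.24 CPM, from 150, 24 and 39 counts. Each KO library lay below each WT library, and WT library 25 stood more than 3-fold above the other WT libraries. The log2 fold change was -2.85 ± 0.71 SE (95% interval -4.47 to -1.23, edgeR adjusted p = 0.0459). The stricter filter of 1 CPM in 3 libraries removed Perp. It kept its sign in the 16 alternatives that gave a value, passed in 9 of them, and had -1.79 without WT library 25 (adjusted p = 0.110); over the alternatives the adjusted p ran from 0.00248 to 0.163.

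Phlda3, which encodes a pleckstrin homology protein that blocks the survival kinase AKT, was lower in the KO libraries without passing the test. It was at 0.818, 1.91 and 1.39 CPM in KO libraries 31, 32 and 40, and at 1.82, 3.58 and 3.74 CPM in WT libraries 25, 27 and 29. KO library 32 lay just above WT library 25, so the groups overlapped. The log2 fold change was -1.15 (95% interval -2.15 to -0.14, edgeR adjusted p = 0.141).

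The groups overlapped for both growth and stress genes. Sesn1 encodes sestrin 1, which restrains the growth kinase complex mTORC1. It was at 35.9, 38.2 and 31.4 CPM in KO libraries 31, 32 and 40 and at 46.3, 31.8 and 38.1 CPM in WT libraries 25, 27 and 29 (log2 fold change -0.14, 95% interval -0.50 to 0.22, edgeR adjusted p = 0.608). Trp53inp1 encodes a nuclear protein that takes part in autophagy and cell death. It was at 70.6, 92.5 and 105.5 CPM in KO libraries 31, 32 and 40 and at 39.1, 115.4 and 80.8 CPM in WT libraries 25, 27 and 29. WT libraries held both its lowest and its highest value, and its log2 fold change was 0.19 (95% interval -0.75 to 1.14, edgeR adjusted p = 0.797), which turned to -0.13 without WT library 25.

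**Figure D2:**
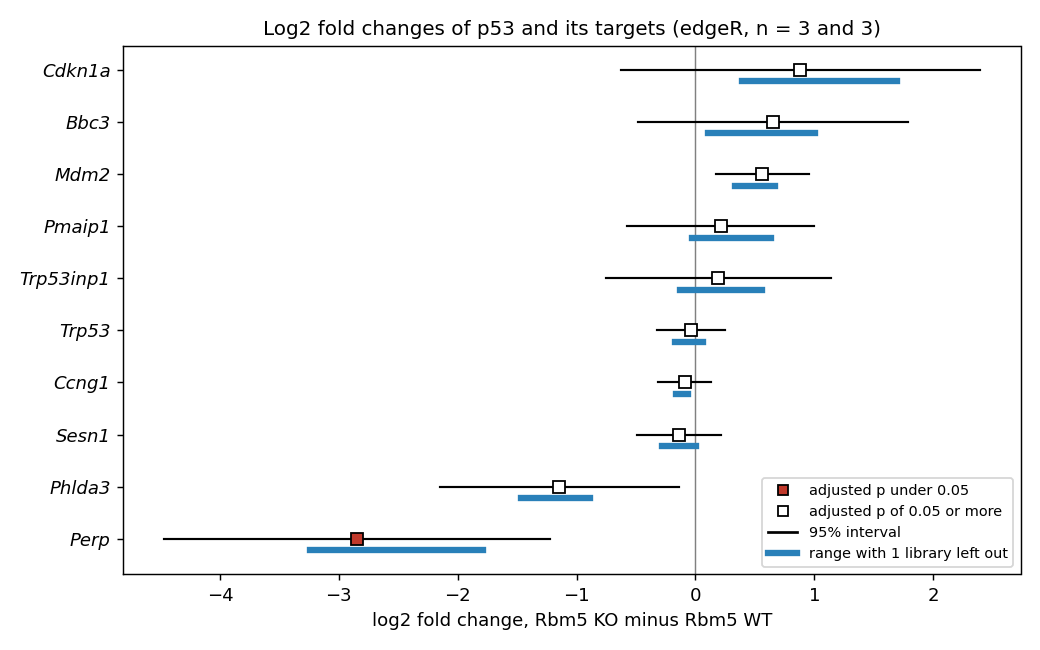
Log2 fold change of each member, Rbm5 KO minus Rbm5 WT, from edgeR (squares, red where the adjusted p is under 0.05) with 95% intervals (black lines) and the range of the value when 1 library is left out (blue bars). Perp at -2.85 is the member past the threshold, and it entered the test through the WT libraries alone. The interval of Trp53 runs from -0.32 to 0.24, and that of Cdkn1a from -0.63 to 2.39.

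Set against gene length, Pmaip1 was the most abundant member under both labels and Perp the least. On the scale of CPM per kilobase of the table's gene length, Pmaip1 was at 192.6 ± 44.7 in KO and 166.3 ± 74.6 in WT, above Trp53 at 35.3 ± 5.68 in KO and 36.3 ± 1.56 in WT (SD, n = 3 each). In KO the order below Pmaip1 was Cdkn1a (49.0), Trp53, Ccng1 (30.1), Mdm2 (26.2), Bbc3 (15.6), Trp53inp1 (13.8), Sesn1 (8.83), Phlda3 (0.881) and Perp (0.153). In WT it was Trp53, Ccng1 (32.1), Cdkn1a (26.6), Mdm2 (17.7), Trp53inp1 (12.1), Bbc3 (9.91), Sesn1 (9.73), Phlda3 (1.95) and Perp (1.11). The ranges of neighbors in this order overlapped from Cdkn1a down to Trp53inp1 in KO, and in WT from Ccng1 down to Sesn1 and between Phlda3 and Perp, so those neighbors did not differ beyond their spread. The genes with means below 2 CPM per kilobase, Phlda3 and Perp, lay apart from the other 8 under both labels.

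Cdkn1a, Bbc3 and Pmaip1 varied widely between libraries of 1 label with KO library 40 and WT library 29 on top, and Trp53inp1 varied widely with KO library 40 and WT library 27 on top. The within-group SD on the log2 scale was 0.87 for Cdkn1a, 0.70 for Bbc3, 0.60 for Trp53inp1 and 0.49 for Pmaip1, above those of 98.7%, 97.6%, 96.4% and 94.1% of the 9309 genes with a mean of at least 10 CPM. That of Trp53 was 0.17, near the median of 0.16. Btg2, an antiproliferative gene that p53 raises, was at 278.8, 304.4 and 625.0 CPM in KO libraries 31, 32 and 40 and at 162.8, 122.4 and 292.2 CPM in WT libraries 25, 27 and 29. Plk3, a stress-activated kinase gene, was at 114.0, 108.3 and 298.9 CPM in KO libraries 31, 32 and 40 and at 81.3, 50.04 and 159.9 CPM in WT libraries 25, 27 and 29. In both, as in Cdkn1a, KO library 40 and WT library 29 were the highest of their groups. This held for 4 of the 10 members (Mdm2 the fourth) and for 4 of the 6 tested arrest targets (Btg2, Plk2, Plk3 and Gadd45a, but not Sfn and Gtse1), where it held for 13.6% of all tested genes. It also held for 6 of the 10 neutrophil markers and 5 of the 9 monocyte and macrophage markers, whose part in it was not tested.

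These same libraries were the highest of their groups for immediate early genes, which cells raise within minutes of a stimulus. A list of 10 of them (Fos, Fosb, Jun, Junb, Egr1, Egr2, Ier2, Ier3, Dusp1 and Atf3), chosen after the values were seen, summed to 5242, 6569 and 16576 CPM in KO libraries 31, 32 and 40 and to 3582, 3122 and 9069 CPM in WT libraries 25, 27 and 29. Of the 10, 0 passed the edgeR test between labels and 2 had an unadjusted p under 0.05, against 8.57% and 26.9% of all tested genes. DESeq2 called 3 as higher in KO and limma-voom 0, where these called 16.7% and 8.24% of all genes in either direction. The part of the immediate early genes in the levels of Cdkn1a, Bbc3, Pmaip1, Mdm2 and Btg2 was not tested. Without KO library 40 and WT library 29 together, which leaves 2 libraries a group, the log2 fold change of Cdkn1a was 1.21 (edgeR adjusted p = 0.0517), that of Mdm2 0.39 (0.137) and that of Trp53 0.03 (0.936), and Perp no longer passed (-3.19, 0.163). That fit was chosen after the data were seen, and it called 0 members, with 4 at an unadjusted p under 0.05, where it called 1.2% of all tested genes and 18.1% had an unadjusted p under 0.05. It called 1 of the 10 immediate early genes as higher in KO, and 8 of them had an unadjusted p under 0.05. With 1 library left out by edgeR, 0 of the 10 passed. The number with such a p ran from 0 (without KO library 40, among others) to 7 (without WT library 29).

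**Figure D3:**
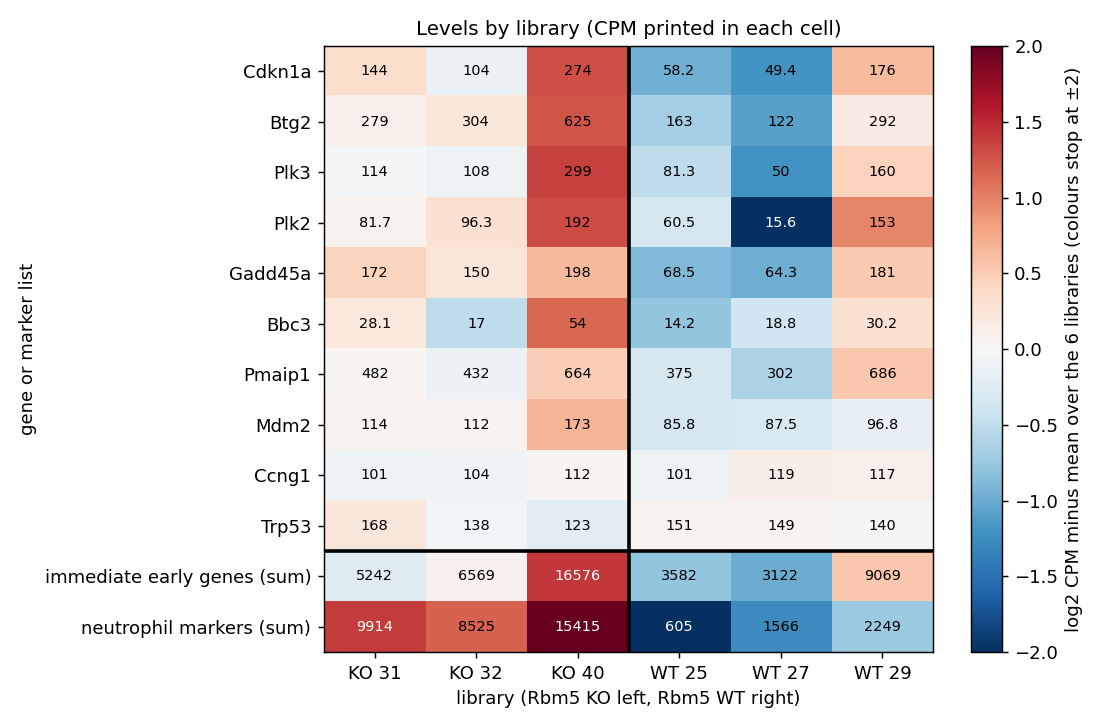
Level by library of 10 p53 pathway genes, of the sum of 10 immediate early genes and of the sum of 10 neutrophil markers, with Rbm5 KO libraries left and Rbm5 WT libraries right. Colour is log2 CPM minus the mean over the 6 libraries, with colours stopping at ±2, and each cell prints the CPM. Cdkn1a, Btg2, Plk3, Plk2, Gadd45a, Bbc3 and Pmaip1 are highest in KO library 40 among KO libraries and in WT library 29 among WT libraries. The same holds for the immediate early sum and for the neutrophil sum, which also separates the labels.

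Among other genes of the pathway, taken from textbook lists, 3 rose and 3 fell of 66 tested (9.09%, where 8.57% of all tested genes were called). The median log2 fold change of these 66 genes was -0.04, against -0.01 over all tested genes. The 6 genes were Ep300, Fas and Dram1, which rose, and Cdkn2a, Atm and Bid, which fell. Without KO library 40, 0 of the list passed by edgeR, with 13 at an unadjusted p under 0.05, where 2.09% of all tested genes passed and 18.7% had such a p, and without both KO library 40 and WT library 29 only Gadd45a did.

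Of 18 regulators of p53, 1 rose, 2 fell and 15 did not pass the edgeR test (16.7% called, where 8.57% of all tested genes were). Cdkn2a, whose locus encodes p19ARF, the inhibitor of MDM2, and the cell cycle inhibitor p16, was at 4.43, 8.14 and 7.07 CPM in KO libraries 31, 32 and 40 and at 21.6, 13.8 and 19.2 CPM in WT libraries 25, 27 and 29. Each KO library lay below each WT library (log2 fold change -1.48 ± 0.27 SE, edgeR adjusted p = 0.0211), and 1 count per gene does not separate the 2 products. Atm, the kinase gene that signals double-strand breaks to p53, averaged 45.1 ± 7.91 CPM in KO and 66.6 ± 3.45 CPM in WT (-0.56 ± 0.14 SE, adjusted p = 0.0457). Ep300, an acetyltransferase gene whose product acetylates p53 and serves as its coactivator, averaged 251.4 ± 28.3 CPM in KO and 174.4 ± 7.88 CPM in WT (0.53 ± 0.10 SE, adjusted p = 0.0248). With 1 library left out, Cdkn2a reached an adjusted p of 0.0720 (without KO library 40) and Ep300 0.0750 (without KO library 40), and Atm passed in none of the 6 such fits. Mdm4, the other main inhibitor of p53, had a log2 fold change of 0.17 (adjusted p = 0.391).

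Of 6 tested arrest targets, 0 passed by edgeR and 0 had an unadjusted p under 0.05, against 8.57% and 26.9% of all tested genes. DESeq2 and limma-voom also called 0. They gave 1 and 2 of the 6 an unadjusted p under 0.05, against 27.8% and 27.4% of all genes. All 6 values were above 0 by edgeR, where 7796 of all 15963 tested genes were. The 6 had a median log2 fold change of 0.71 and a range of 0.05 (Gtse1) to 1.06 (Btg2, 95% interval -0.04 to 2.17, edgeR adjusted p = 0.199). Gadd45a, a growth arrest gene of DNA damage on chromosome 6, was at 171.6, 149.9 and 197.5 CPM in KO libraries 31, 32 and 40 and at 68.5, 64.3 and 180.8 CPM in WT libraries 25, 27 and 29. Its log2 fold change was 0.73 with all libraries (edgeR adjusted p = 0.338) and larger, at 1.38, without WT library 29 (edgeR adjusted p = 0.00844). Rprm had 0 counts in each library.

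Of 10 tested apoptosis targets, Fas rose, Bid fell and 8 did not pass the edgeR test. Fas, a death receptor gene, was at 12.5, 7.87 and 11.8 CPM in KO libraries 31, 32 and 40 and at 5.15, 4.86 and 3.58 CPM in WT libraries 25, 27 and 29 (log2 fold change 1.24 ± 0.26 SE, adjusted p = 0.0307). Bid, whose protein links death receptors to the mitochondrial pathway, was at 123.1, 112.3 and 94.8 CPM in KO libraries 31, 32 and 40 and at 158.0, 213.7 and 207.2 CPM in WT libraries 25, 27 and 29 (-0.81 ± 0.15 SE, adjusted p = 0.0193). Bid lies on chromosome 6, where the median of 390 genes with a mean log2 CPM above 4 was 0.36 higher on the log2 scale in WT libraries 27 and 29 than in the other 4 libraries. Without these libraries, which leaves 1 WT library assumed to vary like the KO libraries, Bid had -0.53 (adjusted p = 0.164) and Fas 1.05 (0.216). Highest adjusted p-values with 1 library left out were 0.0703 for Bid and 0.108 for Fas, both without KO library 40. Bax, the pore-forming target, averaged lower in KO at -0.25 without passing (adjusted p = 0.175), and Zmat3, an RNA-binding protein gene, had -1.03 (0.288) with its highest level in WT library 27.

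Of 17 tested targets of repair, redox and metabolism, Dram1 rose and the other 16 were not called by edgeR (5.88% called, where 8.57% of all tested genes were). Dram1, a lysosomal membrane protein gene of autophagy, was at 90.5, 94.0 and 105.3 CPM in KO libraries 31, 32 and 40 and at 66.9, 58.3 and 77.3 CPM in WT libraries 25, 27 and 29 (log2 fold change 0.52 ± 0.12 SE, adjusted p = 0.0412). It reached 0.135 without KO library 40, and with total counts as the only scaling it had 0.39 (0.0631). Xpc, a damage sensor of nucleotide excision repair that lies on chromosome 6, had -0.41 (adjusted p = 0.0508). Cell cycle genes that p53 lowers through p21 and the DREAM repressor complex did not pass the test. Of 15, 0 were called by edgeR, DESeq2 or limma-voom, where these called 8.57%, 16.7% and 8.24% of all genes. By edgeR 1, Mybl2, had an unadjusted p under 0.05, as did 26.9% of all tested genes. The median log2 fold change of the 15 genes was -0.04, with a range of -0.41 (Mad2l1) to 0.17 (Kif23). Mybl2 had -0.26 (edgeR adjusted p = 0.158), and Mad2l1, on chromosome 6, turned to 0.20 without WT libraries 27 and 29.

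**Figure D4:**
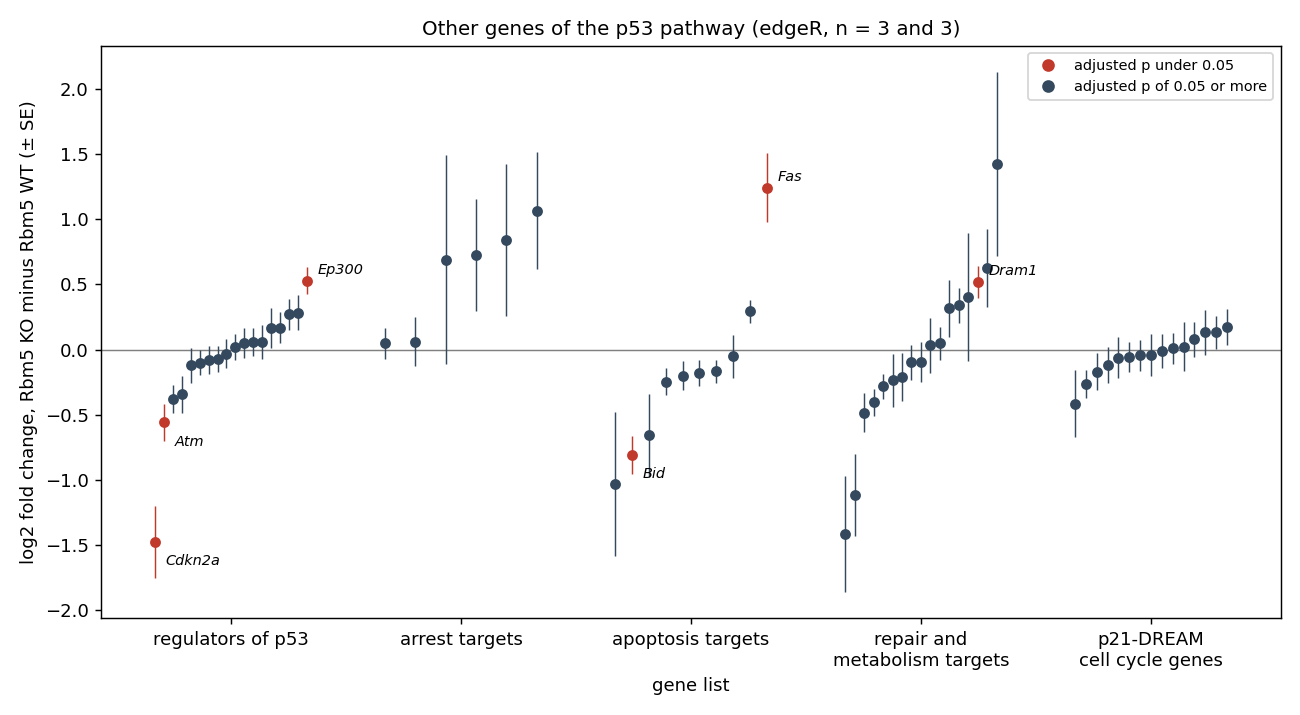
Log2 fold change, Rbm5 KO minus Rbm5 WT, of the 66 tested pathway genes in 5 lists, each with its SE from edgeR and red where the adjusted p is under 0.05. The 6 red genes lie on both sides of 0, the arrest targets are all above 0 without passing, and the p21-DREAM genes lie between -0.41 and 0.17.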

How the data were processed

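RNA was extracted with TRIzol and sequenced by a commercial company, according to the protocols of the labels. In the deposited table the authors give raw whole-number counts per gene for 6 libraries, beside gene coordinates and a gene length of unstated build and definition. The tools Salmon and limma and the builds GRCm38 and mm10 appear in the submitters' processing notes, with no step given for each. Whether the counts are read counts or rounded estimates, and how strand was used, is not given there.

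Groups came from the sample titles, with no batch or pairing named. Nothing says that replicates of a group are of separate animals beyond the word independent, so p-values measure the spread between these libraries. Libraries of a group differed beyond sampling noise (lowest chi-square per degree of freedom 43.9). Genes were kept by edgeR's filterByExpr (minimum count 10, minimum total 15), scaled by TMM and tested by the robust quasi-likelihood fit without covariates (R 4.3.3, edgeR 4.0.16), on all 15963 genes kept, with Benjamini-Hochberg adjustment over all of them and a threshold of 0.05. Each SE is the absolute log2 fold change divided by the root of its F statistic. Alternatives were RLE, upper-quartile and total-count scaling, other filters, no robust shrinkage, DESeq2 1.42.0, limma-voom 3.58.1, no X and Y genes, and left-out libraries.

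The members, pathway lists and markers were chosen with earlier results of these data known. Named genes were the 10 members and Rbm5, up to 4 called genes of each list (the 2 with the smallest p where none was called), and the 3 genes most like Trp53; Mdm4, Plk2, Plk3, Sfn, Hoxa9, Hbb-bs, Bax, Zmat3, Xpc, Gtse1 and Kif23, and the immediate early list, were chosen after their values were seen. Promoter windows are RefSeq's, build GRCm38.p6; coordinates of genes are those of the deposited table and were not mixed with them.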

Additional observations from a re-analysis of the deposited data

How the results depend on the processing

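Over 17 alternatives, the 21 named genes gave 356 values, of which 297 kept their direction and their side of the threshold, 47 kept their direction and no longer passed, 5 newly passed and 7 turned sign. The values that turned were Trp53 at 0.063 without KO library 40 (-0.17 to 0.063 with 1 library left out) and 0.030 without KO library 40 and WT library 29, Sesn1 at 0.0049 (-0.28 to 0.0049) and Trp53inp1 at -0.13 (-0.13 to 0.56) without WT library 25, Pmaip1 at -0.029 (-0.029 to 0.63) without WT library 27, and Ccng1 at 0.053 and Mad2l1 at 0.20 without WT libraries 27 and 29. RLE, upper-quartile and total-count scaling turned none of the 10 members. With 1 library left out, 245 to 787 genes rose and 102 to 440 fell, 0 to 1 members passed, and 0 to 6 other pathway genes passed. Without the filter on low counts, 1110 genes rose and 836 fell of 29260 tested. In that fit 2 members (Mdm2 and Perp) and 10 of 67 tested pathway genes passed. The filter of 1 CPM in 3 libraries removed Perp and left 0 members past the threshold, and limma-voom called 0 members. DESeq2 called 1557 genes higher and 1050 lower, 16.7% of all genes with an adjusted p. Among these were 2 members and 12 of 66 tested pathway genes. Without WT libraries 27 and 29, 305 genes rose, 148 fell and 1 pathway gene passed, and without KO library 40 and WT library 29 the numbers were 144, 51 and 1, with 0 members. Where fewer libraries enter, the fits have fewer degrees of freedom; otherwise the cause was not tested. No paired analysis was possible because the labels give the groups different library numbers. Depth limits Perp and Phlda3, with as few as 6 and 22 counts in a library.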
